A study of Mus musculus with 2 samples.

Results

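The genes described here are 8 chemokine ligands found in lung group 2 innate lymphoid cells (ILC2s), Cxcl1, Cxcl2, Cxcl3, Ccl1, Ccl3, Ccl4, Ccl5 and Xcl1, out of 32285 genes in the files. They were taken by name, and their unique molecular identifiers (UMIs, each standing for 1 captured transcript) were counted in barcodes where 500 genes or more were detected and mitochondrial UMIs did not exceed 10%. The libraries held ILC2s sorted from untreated lungs as live Lineage- CD90.2+ ST2+ Sca-1+ cells, 1 library from WT mice and 1 from Pac1-/- mice, on a C57BL/6J background and at 6 to 8 weeks of age. Pac1-/- mice lack PAC1, a phosphatase encoded by Dusp2, in all tissues and not in ILC2s alone. Cells of 4 to 5 mice were pooled per genotype and 13000 cells were loaded, and no label ties a barcode to a mouse. Each genotype therefore has 1 library with no replicate check, and every interval below is a 95% interval that covers counting error only.

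Chemokines are small secreted proteins that draw leukocytes along a gradient through G protein-coupled receptors. Cxcl1, Cxcl2 and Cxcl3 are the closely related CXC ligands that recruit neutrophils through Cxcr2. Ccl1 is the ligand of Ccr8, a receptor found on type 2 lymphocytes and regulatory T cells, Ccl3, Ccl4 and Ccl5 act on monocytes, T cells and eosinophils, and Xcl1 attracts Xcr1-positive dendritic cells. ILC2s are tissue lymphocytes best known for Il5 and Il13, the cytokines behind eosinophilia and mucus production.

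The 3 CXC genes lie in 1 cluster on the forward strand of chromosome 5 of GRCm38 (mm10), where the annotation (GENCODE M21) places the protein-coding genes Cxcl3 at chr5:90786103-90789600, Cxcl1 at chr5:90891241-90893115 and Cxcl2 at chr5:90903871-90905938. Cxcl1 starts 105138 bases downstream of Cxcl3, and Cxcl2 starts 12630 bases downstream of Cxcl1. Ccl1 (chr11:82176657-82305690), Ccl5 (chr11:83525778-83530518) and Ccl3 (chr11:83647844-83649355) lie on the reverse strand of chromosome 11, Ccl4 (chr11:83662584-83664683) on its forward strand, and Xcl1 (chr1:164931644-164935527) on the reverse strand of chromosome 1. No member overlapped another gene on its own strand. The 150 bases upstream of the start sites of Cxcl1 (chr5:90891095-90891244), Cxcl2 (chr5:90903749-90903898), Cxcl3 (chr5:90785951-90786100) and Ccl1 (chr11:82179813-82179962, reverse strand), from RefSeq on GRCm38.p6, are shown because these are the 4 members that ILC2s carried most often together. Capitals mark GGAATTTCC, a form of the kB motif that NF-kB proteins bind. The RefSeq starts differ from the GENCODE starts given above. The Cxcl2 stretch runs past the GENCODE start of Cxcl2, and the Ccl1 stretch lies inside the longer GENCODE span of Ccl1. Motif positions are counted from the RefSeq starts and would shift with the annotation.
Cxcl1: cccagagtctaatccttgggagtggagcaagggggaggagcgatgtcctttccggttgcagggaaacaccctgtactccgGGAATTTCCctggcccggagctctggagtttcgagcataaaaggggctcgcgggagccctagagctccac
Cxcl2: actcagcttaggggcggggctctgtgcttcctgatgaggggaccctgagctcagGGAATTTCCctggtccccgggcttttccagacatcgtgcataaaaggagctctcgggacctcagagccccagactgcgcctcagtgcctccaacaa
Cxcl3: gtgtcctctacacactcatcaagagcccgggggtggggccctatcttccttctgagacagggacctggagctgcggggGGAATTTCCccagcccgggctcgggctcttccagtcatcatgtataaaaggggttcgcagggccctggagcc
Ccl1: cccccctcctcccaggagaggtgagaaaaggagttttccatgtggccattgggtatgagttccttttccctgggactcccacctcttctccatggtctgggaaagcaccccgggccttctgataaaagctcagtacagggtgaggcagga
The motif lay at -70 to -62 from the start site of Cxcl1, at -96 to -88 in Cxcl2 and at -72 to -64 in Cxcl3, and it was found in 104 of 32851 mouse promoter windows (0.317%; 250 bases before to 50 after the start, both strands). It was not in the windows of Ccl1, Ccl3 and Xcl1, the other members with a promoter entry among the 6 of 8 that matched. The letters TGACGTCA (1.79% of all windows) and TGANTCA (7.81%), the core motifs of CREB and AP-1 factors, were in none of the 6, and overlapped no match. These matches describe sequence and were not tested for binding or use.

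The libraries differed in depth. In all, 8394 of 10866 WT and 7087 of 9495 Pac1-/- barcodes passed, with 54579034 and 58338886 UMIs and medians of 4186.5 and 5577 UMIs per barcode. Because of that gap, shares of positive cells are given after each barcode was thinned to 1500 UMIs, which kept 7634 WT and 6564 Pac1-/- barcodes and left out 760 and 523 shallower ones. Dusp2, the gene behind Pac1, had 1419 UMIs in the WT and 5 in the Pac1-/- library. At least 2 of 9 ILC2 markers were found in 97.6% and 97.0% of thinned barcodes, and at least 2 markers of 1 other cell type (T cell and erythroid lists left out) in 77 (1.01%) and 110 (1.68%). The libraries shared 29 barcodes, 15 of them among those passing.

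Cxcl2 was the most abundant member, with 1833 UMIs per 1000000 of the library (CPM; interval 1822 to 1845) in WT and 1659 CPM (1649 to 1670) in Pac1-/- ILC2s. By level it ranked 100 among all WT genes and 108 among all Pac1-/- genes. Ccl1 came next with 774 CPM (767 to 782) in WT and 449 CPM (444 to 455) in Pac1-/- cells. These 2 genes made up most of the chemokine RNA, Cxcl2 giving 62.8% of member UMIs in WT and 69.4% in Pac1-/- cells and Ccl1 26.5% and 18.8%. Cxcl1 stood at 230 CPM (226 to 234) in WT and 137 CPM (134 to 140) in Pac1-/- cells, and Cxcl3 at 39.0 CPM (37.4 to 40.7) and 95.9 CPM (93.4 to 98.4). Ccl5 was level with WT Cxcl3, at 36.7 CPM (35.1 to 38.4) and 36.1 CPM (34.6 to 37.7), and its interval overlapped that of Cxcl3 in WT but lay well under it in Pac1-/- cells. Ccl4, Ccl3 and Xcl1 were rare, with 3.87, 2.05 and 1.14 CPM in WT and 6.77, 5.95 and 1.46 CPM in Pac1-/- cells, and the intervals of Ccl4 and Ccl3 overlapped in the Pac1-/- library. Counts taken at the 3' end do not scale with transcript length to a first order, so levels can be set side by side. Within 50-base stretches of the last 500 bases, 61 of 799 in Cxcl2 (7.63%) were also present in Cxcl3, and no other member shared one with another gene.

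**Figure D1:**
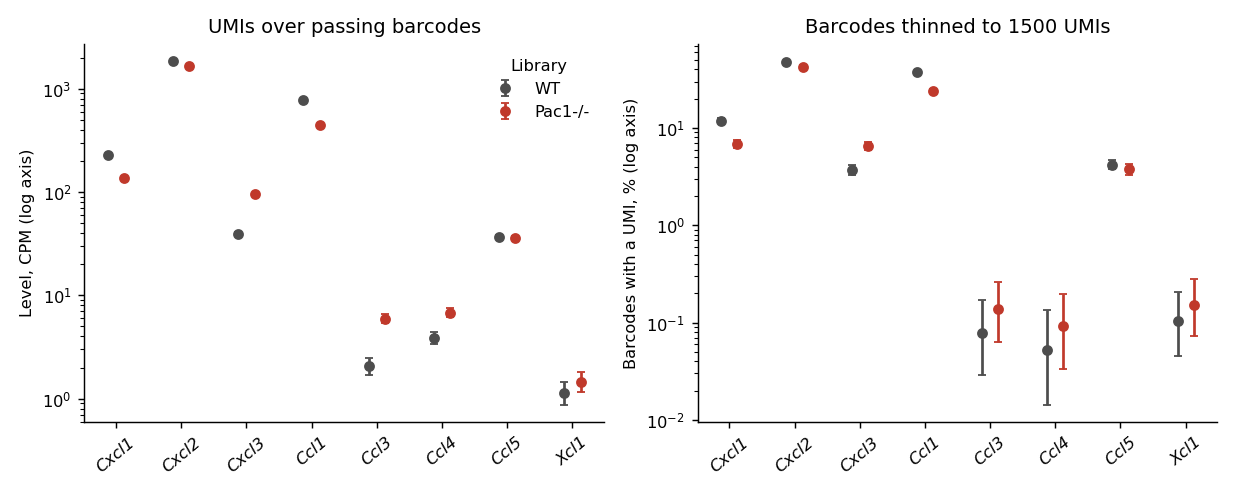
Level of the 8 chemokines in CPM (left, log axis) and the share of barcodes with at least 1 UMI after thinning to 1500 UMIs (right, log axis), for the WT library (grey) and the Pac1-/- library (red), with bars for 95% counting intervals. Cxcl1 and Ccl1 were lower and Cxcl3 higher in the Pac1-/- library on both measures, while Ccl3, Ccl4 and Xcl1 were found in 10 or fewer thinned barcodes of each library.

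Between genotypes the CXC genes moved in unlike directions. Ratios are given as log2 of Pac1-/- over WT relative to the median gene, whose own log2 ratio was 0.19 over 12427 genes with at least 50 UMIs, and a gene was counted as past the fold when it lay 2-fold or more from that median. Cxcl3 was 2.16-fold above the median gene (log2 1.11, 1.04 to 1.18), from 2131 UMIs in WT to 5593 in Pac1-/- cells. Cxcl1 was lower in the Pac1-/- library (log2 -0.93, -0.97 to -0.89; 12529 and 7987 UMIs), as was Cxcl2 by less (-0.33, -0.34 to -0.32; 100051 and 96807 UMIs). As a share of the UMIs of the 3 genes, Cxcl1 made up 10.9% in WT and 7.24% in Pac1-/- cells and Cxcl3 1.86% and 5.07%, whereas Cxcl2 stayed at 87.2% and 87.7%. The 6 other genes with enough UMIs within 1 Mb of the cluster had values from -1.14 (Pf4, a platelet chemokine with 67 and 37 UMIs) to 0.45 (Mthfd2l), and Areg, the epithelial repair factor next to it, had -0.17.

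Among the other ligands, Ccl1 was lower in the Pac1-/- library (log2 -0.97, -0.99 to -0.95; 42261 and 26220 UMIs) and lay just inside the fold, as did Cxcl1. Ccl5 was close to the median gene (-0.21, -0.30 to -0.12; 2005 and 2108 UMIs). Ccl3 was above it at 1.35 (1.04 to 1.67; 112 and 347 UMIs), Ccl4 at 0.62 (0.38 to 0.87; 211 and 395 UMIs) and Xcl1 at 0.17 (-0.32 to 0.67; 62 and 85 UMIs). In total 2 of 8 members, Cxcl3 and Ccl3, were past the fold upward, where 2.08% of all genes compared were, and 0 of 8 were past it downward, where 5.09% of all genes were. The median over the members was -0.02, with 4 above and 4 below the median gene. The count of 2 rests in part on single cells, since without 1 WT and 4 Pac1-/- barcodes described below Ccl3 stood at -0.037. When a member's UMIs were capped at 10 per barcode, Cxcl3 and Ccl3 both stood at 0.68, inside the fold, while Ccl4 at 1.21 and Cxcl1 at -1.23 were past it.

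Thinned shares gave the same directions for the abundant genes. Cxcl2 was found in 47.5% of WT barcodes (46.3 to 48.6) and 42.8% of Pac1-/- barcodes (41.6 to 44.0), and Ccl1 in 37.2% (36.2 to 38.3) and 24.1% (23.1 to 25.1). Cxcl1 was found in 11.9% (11.1 to 12.6) and 6.81% (6.21 to 7.45), and Cxcl3 in 3.71% (3.29 to 4.16) and 6.51% (5.92 to 7.13). None of these 4 pairs of intervals overlapped, whereas those of Ccl5 did, at 4.20% (3.77 to 4.68) and 3.76% (3.32 to 4.25). Over the 7758 genes found in at least 1% of thinned barcodes of both libraries, intervals were separate upward in 32.3% and downward in 13.8%, so separate intervals between the libraries are common. Before thinning the shares were 62.2% and 61.9% for Cxcl2, 56.6% and 46.3% for Ccl1, 22.2% and 14.8% for Cxcl1, 9.77% and 15.7% for Cxcl3 and 13.3% and 13.4% for Ccl5. Without thinning the difference for Cxcl2, Pac1-/- minus WT, was -0.25 percentage points. Ccl3, Ccl4 and Xcl1 were found in 6, 4 and 8 thinned WT barcodes and in 9, 6 and 10 thinned Pac1-/- barcodes.

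RNA that leaks from other droplets can place UMIs in cells that do not make a gene, so barcodes with at least 2 B cell markers, cells not known for these genes, were read the same way. Cxcl2 was found in 1 of 7 such WT barcodes (14.3%) and 3 of 23 such Pac1-/- barcodes (13%, 2.78 to 33.6). The Pac1-/- interval lay under the share over all barcodes of the same depth, while the WT interval (0.36 to 57.9) covered it. Ccl1 was found in 0 of 7 and 2 of 23 (8.70%, 1.07 to 28.0), and Cxcl3 and Ccl5 in none, with upper limits of 41.0% in WT and 14.8% in Pac1-/- cells that lie above the shares of both genes. Cxcl1 was found in 1 of 7 (14.3%, 0.36 to 57.9) and 2 of 23 (8.70%), no lower than its share over all barcodes, and the intervals for Ccl1 covered its share over all barcodes, so that single UMIs of Cxcl1, Cxcl3, Ccl1 and Ccl5 could not be told from this background with so few reference cells. Barcodes with many UMIs of a member were present for each of the 4 genes: the highest unthinned count was 92 in WT and 143 in Pac1-/- cells for Cxcl1, 484 and 501 for Cxcl2, 16 and 91 for Cxcl3 and 139 and 223 for Ccl1. The barcodes with the most Cxcl1, 1% of each library, held 27.1% of its UMIs in WT and 45.2% in Pac1-/- cells, against 14.1% and 16.5% for Cxcl2. Among thinned positive barcodes the mean count of Cxcl3 was 1.52 UMIs in WT and 2.05 in Pac1-/- cells, that of Cxcl1 2.49 and 2.76, that of Cxcl2 5.22 and 5.20, that of Ccl1 2.87 and 2.49 and that of Ccl5 1.21 and 1.37. For Cxcl3 both the share and the mean count were thus higher in the Pac1-/- library, while for Cxcl1 the share was lower and the mean count was not.

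The members were then counted per barcode, with no background share taken off. At 1500 UMIs at least 1 of the 8 was found in 66.4% of WT barcodes (65.3 to 67.5) and 57.3% of Pac1-/- barcodes (56.1 to 58.5), and at least 2 in 30.0% (29.0 to 31.1) and 21.9% (20.9 to 23.0). At least 3 were found in 7.49% and 4.63%, and no thinned barcode held 6 or more. Taking the 5 abundant members, the commonest make-up after none was Cxcl2 alone, in 19.7% of WT and 22.6% of Pac1-/- barcodes. It was followed by Cxcl2 with Ccl1 (15.3% and 10.0%) and Ccl1 alone (13.4% and 8.91%). Cxcl1 with Cxcl2 and Ccl1 was found in 4.31% and 1.63%. A CXC gene of any kind was found in 51.0% and 46.5%, and a CXC gene together with Ccl1 in 23.2% and 14.9%.

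Cxcl1 and Cxcl3 were found more often in cells with Cxcl2 than in cells without it. Cxcl1 was found in 19.3% of WT barcodes with Cxcl2 (18.0 to 20.6) and 5.11% of those without it (4.45 to 5.84), and in 11.5% (10.3 to 12.7) and 3.33% (2.78 to 3.95) of Pac1-/- barcodes. Cxcl3 was found in 5.71% of WT barcodes with Cxcl2 and 1.90% of those without, and in 10.6% and 3.41% of Pac1-/- barcodes. Among barcodes with Cxcl3, 31.1% of WT and 14.8% of Pac1-/- ones held Cxcl1, against 11.1% and 6.26% of those without Cxcl3. Cells with Cxcl3 but no Cxcl1 made up 2.55% of WT and 5.55% of Pac1-/- barcodes, cells with Cxcl1 but no Cxcl3 10.7% and 5.85%, and cells with both 1.15% (0.93 to 1.42) and 0.96% (0.74 to 1.23). The intervals of the cells with both genes overlapped between the libraries, while the cells with either gene alone differed in opposite directions.

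Ccl1 was also found more often beside the CXC genes. It was found in 46.1% of WT barcodes with Cxcl2 and 29.3% without, and in 32.4% and 17.9% of Pac1-/- barcodes. With Cxcl1 the shares were 51.0% and 35.4% in WT and 35.6% and 23.2% in Pac1-/- cells. Of the 10 pairs among the 5 abundant members, the intervals were separate and higher in 5 pairs in WT and 6 in Pac1-/- cells, the sixth being Cxcl3 with Ccl1 (8.92% of barcodes with Ccl1 and 5.74% of those without). Over all other genes, the share with a separate higher share was 4.98% in WT and 5.66% in Pac1-/- cells beside Cxcl2, 3.78% and 2.73% beside Cxcl1, 3.52% and 4.10% beside Cxcl3 and 4.45% and 4.16% beside Ccl1. No pair with Ccl5 was among the separate ones, and Ccl5 was found in 4.42% of WT barcodes with Cxcl2 and 4.01% of those without, and in 4.38% and 3.3% of Pac1-/- barcodes. Cells of 1 library share its preparation and are not replicates, so these shares describe the libraries.

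The shares also followed the amount of Cxcl2 in a cell. From barcodes with no Cxcl2 UMI to those with 20 or more (141 WT and 122 Pac1-/- barcodes), the share with Cxcl1 went from 5.11% to 41.8% in WT and from 3.33% to 23.0% in Pac1-/- cells. The share with Cxcl3 went from 1.90% to 15.6% and from 3.41% to 34.4%, and that with Ccl1 from 29.3% to 56.7% and from 17.9% to 47.5%. At the highest Cxcl2 level Pac1-/- cells therefore carried Cxcl3 more often than Cxcl1, and WT cells Cxcl1 more often than Cxcl3, though the Pac1-/- intervals of the 2 genes overlapped (26.1 to 43.6 and 15.8 to 31.4) and the WT intervals did not (10.0 to 22.7 and 33.6 to 50.4). Ccl5 stayed between 3.51% and 6.92% in WT and between 3.3% and 5.10% in Pac1-/- cells at all Cxcl2 levels.

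**Figure D2:**
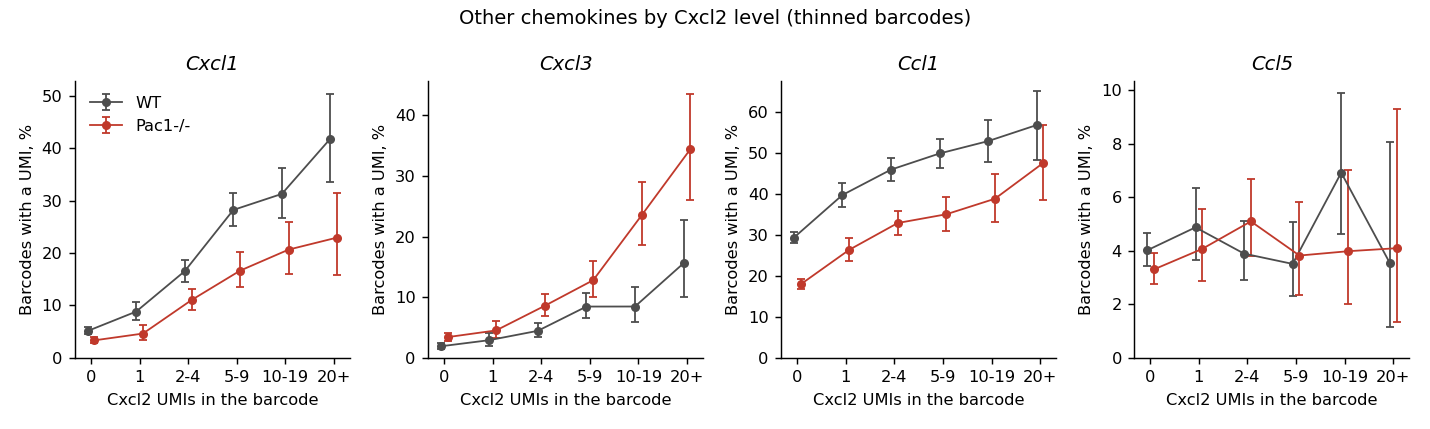
Share of thinned barcodes with a UMI of Cxcl1, Cxcl3, Ccl1 or Ccl5 (y axis, percent, with 95% counting intervals) by the number of Cxcl2 UMIs in the same barcode (x axis) in WT (grey) and Pac1-/- (red) ILC2s. Cxcl1, Cxcl3 and Ccl1 were found more often at higher Cxcl2 counts in both libraries, with Cxcl3 at 34.4% of the 122 Pac1-/- barcodes with 20 or more Cxcl2 UMIs, and Ccl5 stayed under 7%.

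The genes whose counts varied most like those of each member were then listed by the lower Pearson r of the libraries, over log2(UMIs + 1) in 7634 WT and 6564 Pac1-/- thinned barcodes and 7758 genes. Cxcl1 was nearest to Cxcl2 (r = 0.31 in WT and 0.24 in Pac1-/- cells), Hilpda (0.17 and 0.15), a lipid droplet protein, and Csf2 (0.14 and 0.13), which encodes GM-CSF. Cxcl2 was nearest to Hilpda (0.26 and 0.34), the orphan nuclear receptor Nr4a1 (0.25 and 0.31) and the NF-kB inhibitor Nfkbia (0.25 and 0.34). Cxcl3 was nearest to Cxcl2 (0.14 and 0.25), the cAMP-responsive regulator Crem (0.12 and 0.15) and Hilpda (0.11 and 0.18). Hilpda was therefore among the 3 nearest genes of all 3 CXC members. Ccl1 was nearest to Nr4a3 (0.26 and 0.26), Csf2 (0.22 and 0.24) and Hilpda (0.21 and 0.23). For Ccl5 the nearest genes, Tmsb10, Crip1 and S100a6, had r of 0.05 or less in both libraries. The barcodes of a library share its depth and preparation, and values this low in sparse counts are descriptions only.

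The members were next compared between cells with and without a UMI of 4 status genes, the type 2 cytokines Il5 and Il13, the T cell growth factor Il2 and the nuclear receptor Nr4a3, which is induced by activation. The share with Il5 was 33.2% in WT and 20.1% in Pac1-/- barcodes, that with Il13 13.9% and 9.28%, that with Il2 7.47% and 7.83% and that with Nr4a3 42.5% and 25%. Their levels were 718 and 405 CPM for Il5, 190 and 149 CPM for Il13, 65.9 and 71.1 CPM for Il2 and 706 and 355 CPM for Nr4a3. Il5 (log2 -1.01) and Nr4a3 (-1.18) were thus past the fold downward, while Il13 (-0.54) and Il2 (-0.08) were within it.

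Cells with Il5 or Il13 carried more of the chemokines. Cxcl2 was found in 59.2% of Il5+ and 41.7% of Il5- WT barcodes and in 60.1% and 38.4% of Pac1-/- barcodes. Cxcl1 was found in 16.4% and 9.58% in WT and 10.7% and 5.84% in Pac1-/- cells, Cxcl3 in 5.96% and 2.59% and in 12.5% and 5.0%, and Ccl1 in 45.9% and 33.0% and in 34.1% and 21.6%. The intervals of these 4 genes were separate by Il5 in each library, as were those of 7.18% (WT) and 7.21% (Pac1-/-) of the 7757 other genes found in at least 1% of barcodes. By Il13, Cxcl2 was found in 57.9% of positive and 45.8% of negative WT barcodes and in 66.8% and 40.3% of Pac1-/- barcodes. Cxcl3 was found in 5.74% and 3.38% and in 15.3% and 5.61%, Cxcl1 in 17.3% and 11% and in 12% and 6.28%, and Ccl1 in 52.1% and 34.8% and in 37.6% and 22.7%. Il13 was the only status gene by which Ccl5 had separate intervals, at 6.02% and 3.91% in WT and 6.08% and 3.53% in Pac1-/- cells, so all 5 abundant members were separate by Il13, where 4.09% and 5.26% of all genes were.

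Cells with Nr4a3 also carried more of the 4 genes. Ccl1 was found in 48.4% of Nr4a3+ and 29.0% of Nr4a3- WT barcodes and in 39.3% and 19% of Pac1-/- barcodes. Cxcl2 was found in 58.3% and 39.5% and in 61.1% and 36.7%, Cxcl1 in 16.6% and 8.31% and in 10.7% and 5.50%, and Cxcl3 in 4.56% and 3.08% and in 10.7% and 5.12%. The intervals of all 4 were separate, as were those of 8.53% of all genes in WT and 7.93% in Pac1-/- cells. Il2 status went with fewer of them. In WT only the intervals of Ccl1 were separate (42.5% of Il2+ and 36.8% of Il2- barcodes), and in Pac1-/- cells those of Ccl1 (30.9% and 23.5%), Cxcl2 (51.4% and 42.1%) and Cxcl1 (9.92% and 6.55%), where 1.41% and 1.29% of all genes were separate. Cxcl3 was found in 2.81% of Il2+ and 3.78% of Il2- WT barcodes and in 5.45% and 6.60% of Pac1-/- barcodes, with overlapping intervals. Without thinning these differences turned to 4.99 points in WT and 9.53 points in Pac1-/- cells, and all 5 abundant members were separate by Il2 in both libraries. Without barcodes over 2 times the median UMIs no WT member was separate by Il2. In WT cells with a Dusp2 UMI, 222 barcodes, no member's share had an interval separate from that of cells without one. Ratios of CPM, with over without Dusp2, did have intervals off 0. They were log2 -1.34 (-2.98 to -0.11) for Cxcl3, from 5 UMIs in cells with Dusp2, and -0.52 (-0.98 to -0.10) for Cxcl1. For Ccl1 the ratio was -0.33 (-0.54 to -0.12) and for Cxcl2 0.14 (0.02 to 0.26), while the interval of Ccl5 (-2.03 to 0.36) covered 0.

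**Figure D3:**
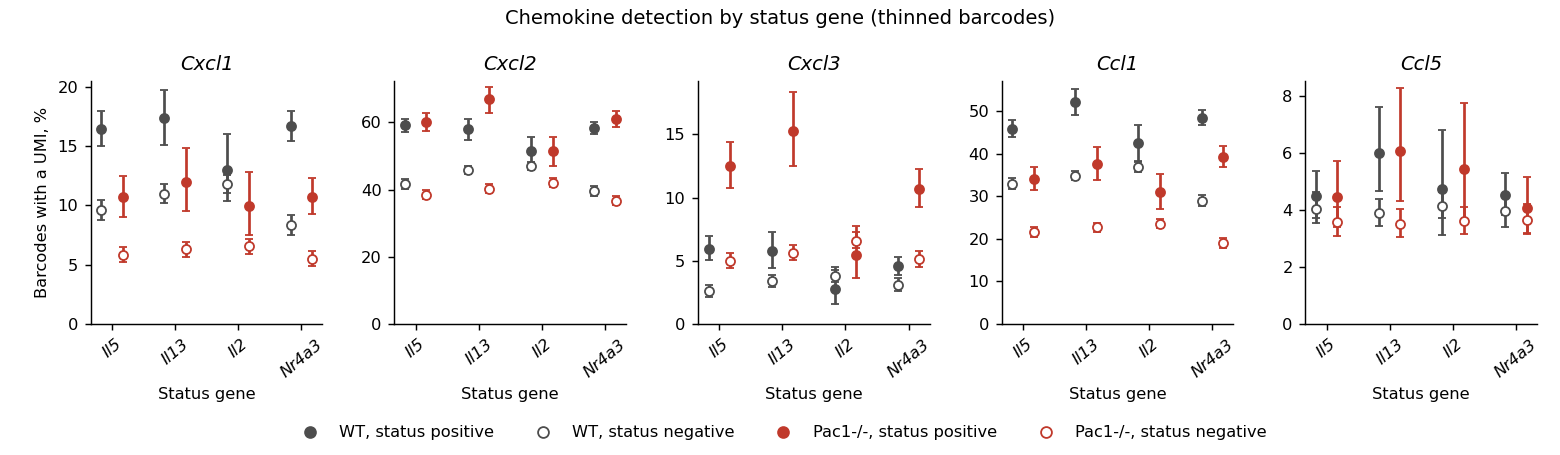
Share of thinned barcodes with a UMI of 5 chemokines (y axes, percent, with 95% counting intervals; each panel has its own scale from 0) in cells with (filled) and without (open) a UMI of Il5, Il13, Il2 or Nr4a3, in WT (grey) and Pac1-/- (red) ILC2s. Filled points lie above open ones for Cxcl1, Cxcl2, Cxcl3 and Ccl1 by Il5, Il13 and Nr4a3 in both libraries, and Cxcl3 by Il2 lies the other way with overlapping intervals, a direction that turned without thinning.

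Since cells with Il5 or Nr4a3 were fewer in the Pac1-/- library, the genotypes were also compared inside 12 classes, those with and without each of the 4 genes and the 4 combinations of Il5 and Il13, as log2 ratios of CPM over thinned barcodes as counted. The classes overlap and share cells. Cxcl3 was higher in Pac1-/- cells in 12 of 12 classes, with log2 ratios from 1.0 to 2.57 and all intervals above 0, as was true of 2.51% of 7754 genes. Ccl1 was lower in 12 of 12, from -0.92 to -0.20, with all intervals below 0, as was true of 2.64% of genes. Outside these classes, in the cells with all 4 status genes (18 WT and 10 Pac1-/- barcodes), the ratio of Ccl1 was 2.22 (1.76 to 2.70), from 54 UMIs in 12 positive WT barcodes and 140 in 7 positive Pac1-/- barcodes. The shares of positive barcodes there, 66.7% and 70%, had overlapping intervals, so the ratio rests on the counts of a few barcodes. In cells with neither Il5 nor Il13, 59.9% of WT and 74.6% of Pac1-/- barcodes, Ccl1 was found in 31.1% and 20.5% and Cxcl3 in 2.43% and 4.35%. The differences of Cxcl3 and Ccl1 between the libraries were therefore also present inside classes set by UMIs detected after thinning. Before thinning, the Il5-positive share stood at 53.1% (WT) and 39.5% (Pac1-/-), against 33.2% and 20.1% after it. A class without Il5 can thus hold cells whose Il5 UMIs were removed by thinning. Whether the make-up of the libraries by cytokine status accounts for these differences was not tested.

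Cxcl1 and Cxcl2 depended on the class. Cxcl1 was lower with an interval below 0 in 9 classes and higher in 1, the cells with both Il5 and Il13 (530 WT and 263 Pac1-/- barcodes), at 0.38 (0.10 to 0.67). In that class its share of positive cells was 19.4% in WT and 15.2% in Pac1-/- cells, with overlapping intervals. The ratios in these classes are as counted. The interval of 0.10 to 0.67 covered 0.19, the log2 ratio of the median gene over all passing barcodes. Cxcl2 was higher as counted, with an interval above 0, in 6 classes and lower in 5. Among the 6, the interval in cells with Il5 but no Il13 (0.077 to 0.190) covered the 0.188 of the median gene. Those in Nr4a3+ cells (0.194 to 0.282) and Il5+ cells (0.213 to 0.308) lay just above that value. It was higher in Pac1-/- cells among cells with Il13 (log2 0.53, 0.46 to 0.60), Il5 (0.26) or Nr4a3 (0.24) and lower among cells without Il13 (-0.26, -0.29 to -0.22), Il5 (-0.17) or Nr4a3 (-0.14). The shares of Cxcl2 had overlapping intervals between the libraries in Il5+ cells, in Il2+ cells and in both Nr4a3 classes. Without thinning the share in Il13- cells was 1.06 points higher in Pac1-/- cells in place of 5.44 points lower. In cells with both cytokines the share with Cxcl2 was 63.4% in WT and 72.6% in Pac1-/- barcodes, that with Cxcl3 7.55% and 16.7% and that with Ccl1 55.3% and 39.2%. Ccl5 ratios lay between -0.17 and 0.19 with no interval on 1 side of 0.

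**Figure D4:**
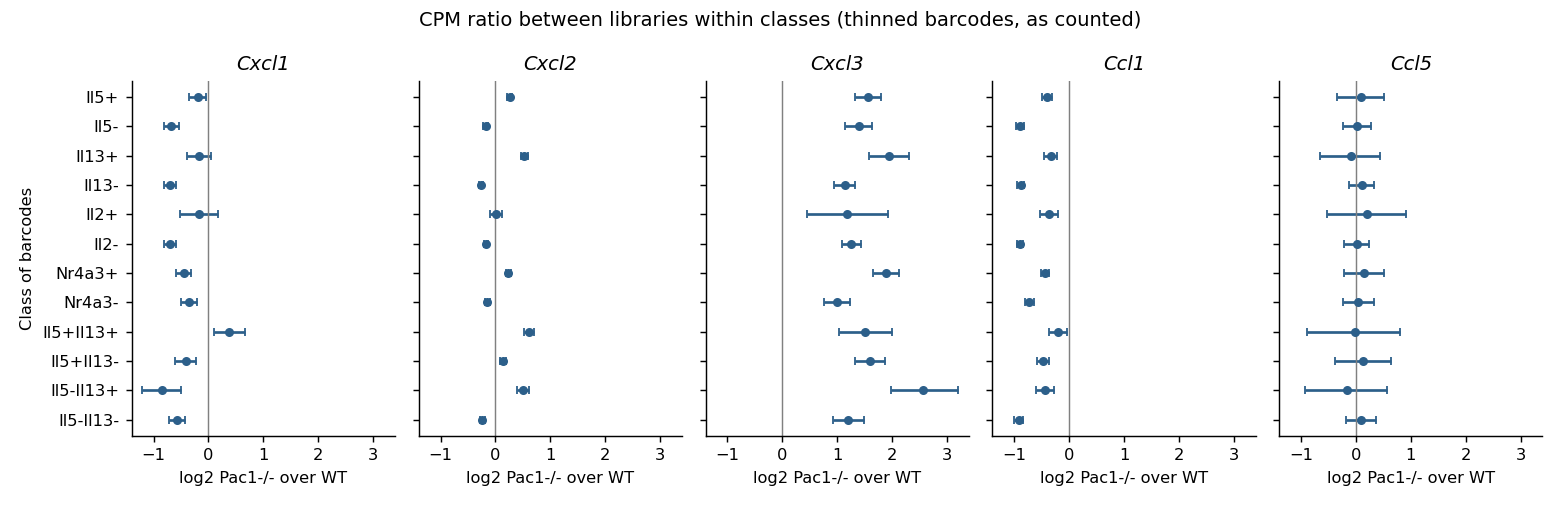
Log2 ratio of CPM, Pac1-/- over WT, as counted in thinned barcodes (x axis, with 95% counting intervals) for 5 chemokines inside 12 classes of cells by status gene (y axis). All points for Cxcl3 lie to the right of 0 and all for Ccl1 to the left, Cxcl2 lies on both sides according to the class, and Ccl5 stays near 0.

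Ccl3 and Ccl4, the macrophage inflammatory proteins, came mostly from a few barcodes. In WT 1 barcode held 85 Ccl3 and 193 Ccl4 UMIs, 75.9% and 91.5% of all in the library. In the Pac1-/- library 4 barcodes with 10 or more UMIs of either gene held 90.8% and 90.1%, with Ccl3 counts of 171, 72, 62 and 10 and Ccl4 counts of 131, 92, 84 and 49. Each of these barcodes carried at least 1 of 6 mast cell and basophil markers other than Kit, against 470 of 8393 other WT barcodes (5.60%) and 833 of 7083 other Pac1-/- barcodes (11.8%), a comparison chosen after the values were seen. The WT barcode and 3 of the 4 Pac1-/- barcodes also held Gata3 UMIs, and the WT barcode and 2 of the 4 had over 2 times the median UMIs of their library. The rest of the cells held 27 and 32 Ccl3 UMIs and 18 and 39 Ccl4 UMIs. Without the barcodes with 10 or more UMIs of either gene, the relative log2 ratio was -0.037 for Ccl3 and 0.83 for Ccl4, in place of 1.35 and 0.62, whereas without barcodes over 2 times the median UMIs it was 2.99 and 4.04, with 3 members past the fold upward.

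Ccl5 and Xcl1, ligands typical of T and NK cells, were spread more widely. Ccl5 had 43 UMIs in its highest WT barcode and 74 in its highest Pac1-/- barcode, which carried all 8 NK cell and ILC1 markers, and barcodes with at least 2 such markers held 0.20% of WT and 4.27% of Pac1-/- Ccl5 UMIs. Barcodes with at least 2 T cell markers, which in these libraries include the T cell receptor constant genes Trbc1 and Trbc2 and cover 4534 WT and 4532 Pac1-/- barcodes before thinning, held 77.1% and 81.2% of them. At equal depth, where the same markers were found in 17.8% and 23.4% of barcodes, Ccl5 was found in 3.9% of those and 4.27% of the rest in WT and in 4.49% and 3.54% in Pac1-/- cells. Xcl1 was found in 33 WT and 28 Pac1-/- barcodes before thinning, with at most 9 and 11 UMIs in a barcode.

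The receptors of these ligands were also read, from a list of all 23 chemokine receptors in the files. Cxcr2, the receptor of the CXC members, had 6 UMIs in WT and 3 in Pac1-/- cells, and Cxcr1 had 1 and 0. Ccr8, the receptor of Ccl1, was abundant and lower in the Pac1-/- library, at 118 and 59.9 CPM (log2 -1.17, -1.23 to -1.11), so that ligand and receptor were both lower there. Of 12 receptors with at least 50 UMIs, 4 were past the fold downward and 0 upward. Over all genes compared, 5.09% were past it downward and 2.08% upward. The 4 were Ccr8, the Xcl1 receptor Xcr1 (3.79 and 0.96 CPM, -2.17), the Ccl3 and Ccl5 receptor Ccr1 and the fractalkine receptor Cx3cr1. Ccr1 stood at 6.14 and 1.97 CPM (-1.83) and Cx3cr1 at 3.65 and 1.47 CPM (-1.49). All but Ccr8 had few UMIs, 207 and 56 for Xcr1, 335 and 115 for Ccr1 and 199 and 86 for Cx3cr1. Ccr3, the eosinophil receptor, had 35 and 24 UMIs (-0.83). Cxcr4, Ccr4, Ccr9, Cxcr6, Ccr2 and Ccr7 lay between -0.13 and 0.38.

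Of 36 other ligand genes, 15 had no UMI in either library and 9 had at least 50. Of this list only Cxcl14, an epithelial and stromal chemokine with 14 and 37 UMIs, was past the fold upward (log2 1.12), as were 2.08% of all genes. Past it downward were 0, against 5.09% of all genes. The platelet chemokine Pf4 was not on the list and was past the fold downward (-1.14, 67 and 37 UMIs). Cxcl10, the interferon-induced ligand of Cxcr3, was the most abundant at 49.9 and 46.3 CPM (-0.29), above Cxcl3 in WT and below it in Pac1-/- cells. Ccl25, the ligand of Ccr9, stood at 10.4 and 16 CPM (0.42), and the others, Ccl27a, Ccl21a, Cx3cl1, Cxcl16, Ccl9 and Ccl6, lay between -0.77 and 0.72.

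Other gene lists were read on the same scale. Of 10 NF-kB targets, 0 were past the fold and all 10 lay below the median gene (-0.67 to -0.01, median -0.38). Of 10 NFAT and calcium targets, Nr4a3, Egr2, Tnfrsf9 and Irf4 were past it downward (median -0.83), as were 5.09% of all genes. Of 9 effector cytokines with enough UMIs only Il5 was, and of 11 immediate-early genes none was (median 0.16).

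Signal from other cell types differed somewhat between the libraries. Summed marker levels were 6154 and 5599 CPM for the 9 ILC2 markers, 695 and 954 for T cells, 441 and 238 for mast cells and basophils, 76.1 and 269 for erythroid cells, 60.5 and 79.2 for B cells, 54.0 and 81.7 for epithelial and 42.7 and 39.96 for endothelial cells. ILC3 and gamma-delta T cell markers summed to 11.6 and 22.7 CPM, NK cell and ILC1 markers to 2.31 and 5.09, monocyte and macrophage markers to 2.53 and 7.25, stromal markers to 2.62 and 2.57 and dendritic cell markers to 3.79 and 1.01, of which Xcr1 gave 3.79 and 0.96 while Clec9a, Cd209a and Siglech were at 0 in both. In the T cell sum Trbc1 (292 and 463 CPM) and Trbc2 (261 and 386 CPM) were higher in Pac1-/- cells, whereas Cd3d, Cd3e, Cd3g and Trac were lower. Kit, a marker that ILC2s can also carry, gave 428 and 209 CPM of the mast cell and basophil sum, whereas Cpa3 (12.8 and 26.3 CPM) and Mcpt8 (0.16 and 1.80 CPM) were higher in Pac1-/- cells. Neutrophil (0.18 and 0.10) and eosinophil (0.07 and 0.21) markers were near 0, with 3 of 5 and 2 of 5 neutrophil markers at 0. An alternative left out barcodes with 2 or more markers of 1 other type, 557 WT and 941 Pac1-/- barcodes, and Cxcl3, Cxcl1 and Ccl1 kept their directions. The T cell and erythroid lists were not used for it, so barcodes with T cell markers alone stayed in. In that alternative the relative log2 ratio of Ccl3 was 0.10 in place of 1.35, that of Ccl4 0.25 in place of 0.62, that of Xcl1 -0.02 in place of 0.17 and that of Ccl5 -0.29 in place of -0.21.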

How the data were processed

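Single-cell 3' libraries (10x Genomics, chemistry v3.1) were read from the deposited matrices, which hold raw UMI counts per gene and barcode that the authors made with Cell Ranger against mm10 without normalization. Version 6.1.1 is named in the submitters' processing notes and 4.0.0 in the matrix headers, and the annotation release was not given in the sources used here. The study's own filter kept fewer cells than the filter used here, and no doublet caller was run here. Sums over barcodes were scaled to CPM (UMIs per 1000000) with exact Poisson intervals, ratios have exact conditional binomial intervals, and shares have Clopper-Pearson intervals. No test was run, since each genotype has 1 library. The 8 members, the status genes and the marker, receptor and target lists were chosen with earlier results of these data known. Named genes were all members, the status genes, the 3 nearest genes of each member found in at least 1% of thinned barcodes, other ligands and receptors with at least 50 UMIs, and the target lists, except 1 receptor that is not reported here. At least 2 markers of a list were needed for a cell type label. The T cell and erythroid lists were not used to leave out marker-bearing barcodes. Alternatives covered scaling, UMI minimum, barcode filters, thinning depth and seed, high-UMI barcodes, marker-bearing barcodes, a cap of 10 UMIs and 2 UMIs for a positive status. Python 3.11.15, numpy 2.4.6, scipy 1.17.1, pandas 2.3.3 and matplotlib 3.10.9 were used, and the functions were tested on simulated data.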

Additional observations from a re-analysis of the deposited data

Results flagged for a closer look

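Cxcl2 differed between the libraries in opposite directions by Il13 status. Its share of positive barcodes, Pac1-/- minus WT, was 8.88 percentage points among cells with an Il13 UMI (66.8% against 57.9%) and -5.44 percentage points among cells without one (40.3% against 45.8%). It drew attention because the genotype difference changed sign between the classes while both pairs of intervals were separate. Without thinning both differences were positive, 2.70 points with Il13 and 1.06 points without it, and at 3000 UMIs the first was 1.63 points. The difference between the classes was not tested, since each genotype has 1 library.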

How the results depend on the processing

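Under all 8 alternatives of the ratio Cxcl3 stayed above 0 (log2 0.68 to 1.30). Cxcl1 (-1.23 to -0.75), Cxcl2 (-0.57 to -0.14), Ccl1 (-0.99 to -0.78) and Ccl5 (-0.30 to -0.02) stayed below 0, while Xcl1 ranged from -0.02 to 0.36. In the alternative of CPM as counted, ratios were not taken relative to the median gene. That alternative gave the -0.02 of Ccl5, with an interval (-0.11 to 0.07) that covered 0. Ccl4 ranged from 0.25 to 4.04, the latter without barcodes over 2 times the median UMIs, and Ccl3 from -0.037 to 2.99. Ccl3 turned to -0.037 without the barcodes with 10 or more Ccl3 or Ccl4 UMIs, an alternative added after seeing the data. The members past the fold upward were 1 in place of 2 in that alternative, without barcodes with markers of other types, and with UMIs capped at 10 per barcode, where it was Ccl4 in place of Cxcl3 and Ccl3 and 1 was past it downward, and 3 without barcodes over 2 times the median UMIs. The share of barcodes with at least 1 member was 60.5% in WT and 51.3% in Pac1-/- cells at 1000 UMIs, 79.0% and 68.4% at 3000, 80.6% and 78.0% without thinning, 60.4% and 52.7% without barcodes over 2 times the median UMIs, and 56.0% of Pac1-/- barcodes without those with markers of other types. At least 2 members were found in 45.5% and 32.7% at 3000 UMIs, 51.1% and 46.8% without thinning, 24.0% and 18.0% without barcodes over 2 times the median UMIs, and 20.6% of Pac1-/- barcodes without those with markers of other types. The shares of positive cells, Pac1-/- minus WT, kept their sign for Cxcl1, Cxcl2, Cxcl3 and Ccl1 under 7 alternatives. By Il2 status, the WT members with a separate higher share were 2 at 3000 UMIs, 5 without thinning and 0 without barcodes over 2 times the median UMIs, and the Pac1-/- members were 5 without thinning, 1 without barcodes with markers of other types and 1 with 2 UMIs for a positive status. The Cxcl2 difference in Il13- cells turned to 1.06 points without thinning, and that in Il13+ cells was 1.63 points at 3000 UMIs and 2.70 without thinning. The cause of these changes was not tested. In the co-detection and status comparisons, 59 of 64 and 221 of 252 single values kept the call of separate or overlapping intervals, though their size could change (Cxcl1 by Il5 in WT was 17.1 points without thinning in place of 6.85). Cxcl3 by Il2 turned to 4.99 points in WT and 9.53 in Pac1-/- cells without thinning. In Pac1-/- cells it was 2.73 with 2 UMIs for a positive status and 1.04 without barcodes with 10 or more Ccl3 or Ccl4 UMIs. The latter left out 4 Pac1-/- barcodes, which held 0, 0, 2 and 0 Cxcl3 UMIs. Alternatives that left out barcodes were thinned anew with another random draw, so draw and removed barcodes cannot be told apart there. Repeated thinnings were read only for the shares of positive cells, not for these comparisons. Ccl5 turned to -1.48 points by Il2 in Pac1-/- cells with 2 UMIs for a positive status, and to -1.52 beside Cxcl2 in WT without barcodes over 2 times the median UMIs. Scaling as counted gave 3.53% of all genes past the fold upward and 3.3% downward. No paired analysis was possible because each genotype has 1 library and no test was run. For Ccl3, Ccl4 and Xcl1, each found in under 0.5% of barcodes also without thinning, a difference in thinned share was not detectable.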
